A study of Mus musculus with 32 samples.

Results

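Subcutaneous white fat of sham-operated C57BL/6J mice was compared between zeitgeber time 1 (ZT1, 1 h after lights on) and ZT13, 12 h later on the opposite side of the day. The comparison rests on 8 of the 32 libraries of the study, 4 sham animals at ZT1 and 4 at ZT13, selected by the surgery and time that the labels give. The other 24 libraries are sham fat at ZT7 and ZT19 and fat after vertical sleeve gastrectomy (VSG, removal of most of the stomach) at the same 4 times, with 4 animals in each of 8 groups. All tissue was taken 9 days after surgery. Sham and VSG mice alike were given liquid diet before the operation and fasted overnight. Afterwards they received liquid diet alone until day 3 and could choose a high-fat diet (HFD) on day 4. The sham groups therefore stand for operated mice early after a change of diet, not for unoperated mice. RNA came from whole biopsies, so fewer cells of a type and less RNA per cell cannot be told apart.

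The molecular clock is a feedback loop of transcription. The activators BMAL1 (gene Arntl) and CLOCK or NPAS2 bind E-box sequences and drive their own repressors, the PER and CRY proteins and the REV-ERB receptors (Nr1d1 and Nr1d2), and REV-ERB and ROR receptors compete at the Arntl gene. PAR bZIP factors such as DBP carry the rhythm to other genes through D-box sequences. In nocturnal rodents the hours around lights off are also those of rising corticosterone and of the start of feeding, and fat is a target of both signals.

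Of 15588 genes tested, 184 (1.18%) differed between ZT1 and ZT13, 129 (0.828%) higher and 55 (0.353%) lower at ZT13. The call is an adjusted p under 0.05 from limma with Benjamini-Hochberg adjustment, on log2 of the normalized read count plus 1. All 16 sham libraries entered the fit, so ZT7 and ZT19 also helped to set the spread. With the 8 libraries of ZT1 and ZT13 fitted alone, 29 genes were called, 28 of them among the 184. A log2 change is ZT13 minus ZT1 throughout, with its standard error after ±. A change of at least 2-fold was found in 79 of the called genes, 58 higher and 21 lower, and 175 of the called genes were protein coding. The groups of 4 libraries did not overlap for 179 of the called genes, against 8.51% of all genes tested (4.28% with ZT13 higher and 4.23% with ZT13 lower). Calls and overlaps come from the same libraries, so this is not separate support. The median log2 change over all genes was -0.0051. In both directions the genes with the smallest p belonged to the clock.

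The 8 libraries held 23730102 to 34579650 reads assigned to genes. Defining adipocyte genes were abundant in each of them, with a list mean of 15.7 to 16.8 at ZT1 and 16.4 to 16.7 at ZT13 on the log2 scale. Sham ZT1 replicate 1 stood apart in B cell markers (list mean 11.8, against 6.46 to 6.94 in the other 3 ZT1 libraries) and in T cell markers (10.97, against 5.15 to 5.48). ZT1 replicate 4 and ZT13 replicate 2 stood apart in skeletal muscle markers, at 8.01 and 11.5 where the other 6 libraries had 4.36 to 4.87. ZT1 replicate 4 also had the highest macrophage and adipose progenitor list means of the 8 libraries, 12.4 and 11.7. Without these 3 libraries (2 at ZT1 and 1 at ZT13) 110 genes were called, 60 higher and 50 lower. Of those, 70 were among the 184. Single libraries moved the count as well: 462 genes were called without ZT1 replicate 3, 74 without ZT13 replicate 1, 93 without ZT13 replicate 2 and 87 without ZT13 replicate 3. Each of the 184 genes kept its sign under 21 of the 22 alternatives tried. The other, a minimum mean of 50, tested 164 of them, which kept theirs. Because the genes were picked by their change in these same libraries, a kept sign is not separate support.

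The clock activators Arntl and Npas2 were high at ZT1 and low at ZT13. They were the only called members of the 7 activators and ROR receptors, where 0.353% of all genes were called lower. Npas2 (chr1:39193731-39363236 on mm10), a partner of BMAL1 that can take the place of CLOCK, had normalized read counts of 150.5, 208, 223 and 261 at ZT1 and 13.02, 8.803, 10.97 and 10.9 at ZT13, in the order of replicates 1 to 4. Every ZT1 library was more than 10 times above every ZT13 library. The difference was 17.6-fold (log2 change -4.13 ± 0.235, adjusted p = 1.43e-07), the greatest fall among the called genes. Arntl (chr7:113207465-113314122), the obligate partner in the activator pair, had 849, 731, 856 and 986 at ZT1 and 83.7, 145, 109 and 114 at ZT13. It fell by 2.93 ± 0.173 on the log2 scale (adjusted p = 1.43e-07). Both genes were intermediate at the other times, with Arntl at 209 ± 39.7 (SD, n = 4) at ZT7 and 706 ± 108 at ZT19, and Npas2 at 20.3 ± 5.64 and 80.6 ± 16.98.

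Clock, the third activator gene, had 1569.8, 1766, 1941 and 1652 at ZT1 and 1292, 1434, 1362 and 1430.1 at ZT13. The groups did not overlap, but the log2 change of -0.33 (95% confidence interval -0.53 to -0.12) missed the threshold with an adjusted p of 0.117. Rora, a receptor that activates Arntl, had a log2 change of 0.50 with an adjusted p of 0.0524, and it passed when ZT1 replicate 3, ZT1 replicate 4 or ZT13 replicate 4 was left out (adjusted p 0.0343 to 0.0489). Rorb, a receptor of the same family, and Arntl2, a paralog of Arntl, had log2 changes of -0.98 and -0.01 (adjusted p 0.491 and 0.992). None of the 9 kinases and turnover factors of the clock proteins, such as Csnk1d and Btrc, was called, and their median log2 change was 0.11.

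Of 11 clock repressors, 6 were higher at ZT13 and none was lower, against 0.828% and 0.353% of all genes tested. Per2 (chr1:91415982-91459324), a core PER repressor, had 219.7, 293, 205 and 215 at ZT1 and 2167, 1582, 1659 and 1340.5 at ZT13 (log2 change 2.84 ± 0.186, adjusted p = 4.18e-07). Per2 in ZT1 replicate 2 lay above the other 3 ZT1 libraries, but still far under every ZT13 library. Per3, a less essential PER gene, had 593, 728, 637 and 1038 at ZT1 and 3752, 2789.6, 2648 and 2208 at ZT13 (log2 change 1.93 ± 0.184, adjusted p = 4.5e-05). Per1, the PER gene that also responds to glucocorticoids, had 1135, 915, 1353 and 1035 at ZT1 and 3205, 2419.9, 3044 and 4706 at ZT13 (log2 change 1.56 ± 0.282, adjusted p = 0.01099). Each PER gene was above its ZT1 values in every ZT13 library. Per3 lies on the same strand as Camta1, which overlaps it by 41014 bases.

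The REV-ERB gene Nr1d2 had 613, 450.3, 492 and 928 at ZT1 and 1769, 1752, 1598 and 1334 at ZT13 (log2 change 1.43 ± 0.205, adjusted p = 0.00255). Bhlhe41 (DEC2), which represses at E-boxes, had 266, 229, 268 and 231 at ZT1 and 706, 651, 658 and 585 at ZT13 (log2 change 1.39 ± 0.164, adjusted p = 0.000488). Ciart, a circadian repressor that acts on the activator complex, had 62.4, 39.998, 39.4 and 27.997 at ZT1 and 113, 102, 121 and 141 at ZT13 (log2 change 1.51 ± 0.239, adjusted p = 0.00489). In all 3 genes the ZT13 values lay above every ZT1 value. The median log2 change of the 11 repressors was 1.39. Without the 3 libraries that stood apart in B cell or muscle markers 5 of the 11 were called; Per1 then had a log2 change of 1.68 with an adjusted p of 0.05899.

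The remaining repressors did not pass. Cry1 had 401, 341, 416 and 286 at ZT1 and 500.3, 532, 487 and 488 at ZT13, non-overlapping groups with a log2 change of 0.49 and an adjusted p of 0.0983, or 0.0489 without ZT1 replicate 3. Bhlhe40 (DEC1) had a log2 change of 0.93 (adjusted p 0.0979), Cry2 of 0.35 (0.2304) and Nfil3, which competes with PAR bZIP factors, of -0.28 (0.515). Nr1d1 (REV-ERB alpha) had 1585, 4008, 2313 and 3809 at ZT1 and 4540.4, 3339, 4064 and 4204 at ZT13, overlapping groups with a log2 change of 0.55 (95% confidence interval -0.01 to 1.11, adjusted p 0.312). Nr1d1 averaged 7547 ± 1248 at ZT7 and 1168 ± 385 at ZT19, so both times compared lay between its level at those times. Its 3' end overlaps Thra on the other strand by 1075 bases, and reads there cannot be told apart with this kit.

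**Figure D1:**
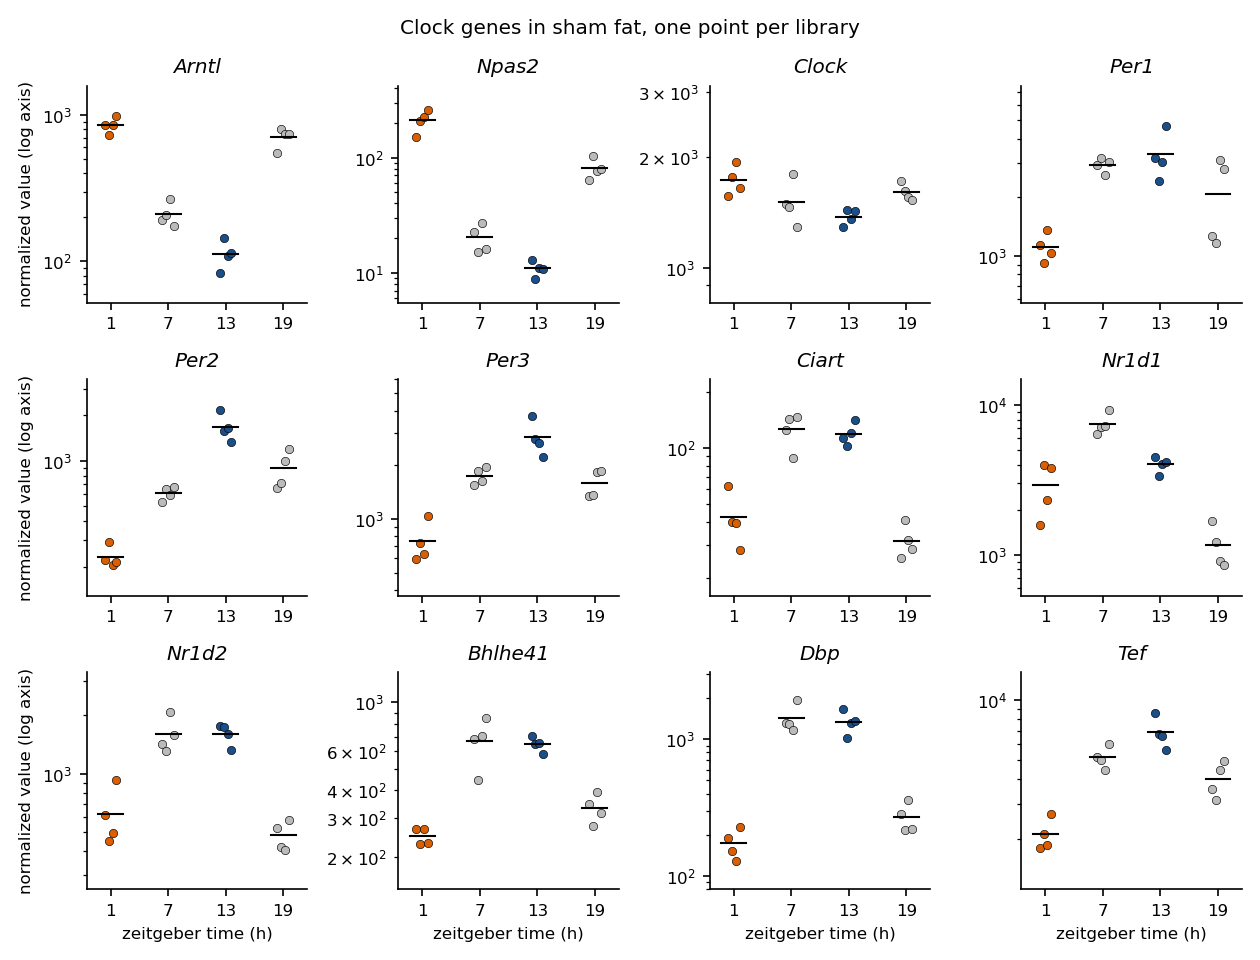
Normalized read counts (log axis) of 12 clock genes in the 16 sham libraries by zeitgeber time; each point is 1 library, lines are group means, and ZT1 is orange and ZT13 blue. Arntl and Npas2 are high at ZT1 and low at ZT13, the PER genes, Ciart, Nr1d2, Bhlhe41, Dbp and Tef do the opposite without overlap, and the ZT1 and ZT13 points of Nr1d1 overlap.

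Promoters of 4 of the repressors called higher are shown because they hold the letters of binding motifs of the clock factors. The stretches are the 250 bases before the annotated start in RefSeq (GRCm38.p6, the assembly named mm10), written 5' to 3' on the gene's strand. Capitals mark the E-box CACGTG, which reads the same on both strands, or the D-box TTANGTAA, searched on both strands; in these 4 stretches no matches of the motifs overlapped.
Ciart (chr3:95882229-95882478, minus strand): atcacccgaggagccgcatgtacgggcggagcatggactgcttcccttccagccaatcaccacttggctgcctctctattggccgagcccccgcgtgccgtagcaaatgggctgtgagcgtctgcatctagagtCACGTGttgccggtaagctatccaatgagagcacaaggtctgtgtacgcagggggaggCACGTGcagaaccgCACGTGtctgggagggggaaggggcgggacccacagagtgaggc
Per1 (chr11:69098699-69098948, plus strand): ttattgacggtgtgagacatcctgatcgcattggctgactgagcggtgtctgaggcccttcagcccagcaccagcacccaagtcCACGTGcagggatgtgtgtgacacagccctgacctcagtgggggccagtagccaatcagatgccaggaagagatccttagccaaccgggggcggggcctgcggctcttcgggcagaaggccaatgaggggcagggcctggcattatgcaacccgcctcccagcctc
Bhlhe41 (chr6:145865421-145865670, minus strand): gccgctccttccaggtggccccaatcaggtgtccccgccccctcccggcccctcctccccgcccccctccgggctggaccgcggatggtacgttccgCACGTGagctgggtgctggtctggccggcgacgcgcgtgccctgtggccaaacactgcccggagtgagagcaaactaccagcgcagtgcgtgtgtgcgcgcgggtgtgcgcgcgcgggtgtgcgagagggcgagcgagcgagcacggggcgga
Per3 (chr4:151044666-151044915, minus strand): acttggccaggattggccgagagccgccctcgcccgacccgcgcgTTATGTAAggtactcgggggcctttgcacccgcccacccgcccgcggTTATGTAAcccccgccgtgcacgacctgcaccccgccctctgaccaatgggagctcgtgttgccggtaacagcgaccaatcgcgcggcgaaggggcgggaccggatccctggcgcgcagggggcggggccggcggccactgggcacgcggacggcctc
The Ciart stretch held 3 E-boxes, Per1 and Bhlhe41 held 1 each, and Per3 held 2 D-boxes. Per1 has another annotated start in the table, whose stretch held neither motif, and the other 3 genes have 1 start each. Among the other repressors called higher, the Nr1d2 stretch held neither motif, and Per2 had no promoter among those searched. A gene with several starts is counted below as holding a motif where any of its stretches did. Such matches were not rare: an E-box was present in 6.02% of all 32851 promoters of the table and in 9.49% of the 11213 tested genes that have one there. Among genes called higher at ZT13 it was present in 16 of 99 (16.2%), and among those called lower in 8 of 38 (21.1%). A D-box was present in 2.06% of all promoters and in 1.68% of the 11213 tested genes. It was present in 3 of the 99 genes called higher (3.03%) and in 1 of the 38 called lower (2.63%). A match of letters is not a measured binding site.

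Of the 11 PAR bZIP factors and other clock outputs, 6 were higher at ZT13 and 1 was lower (0.828% and 0.353% of all genes). Dbp (chr7:45705247-45710203), the PAR bZIP factor most directly driven by the clock activators, had 189.8, 151, 127 and 226 at ZT1 and 1669, 1022, 1324 and 1356 at ZT13. Its rise was among the steepest of the 184 genes (log2 change 2.96 ± 0.214, adjusted p = 1.39e-06), with no overlap between the groups. Tef had 1807, 2123, 1874 and 2692 at ZT1 and 8547, 6700.2, 6578 and 5616 at ZT13 (log2 change 1.69 ± 0.165, adjusted p = 5.2e-05), and Hlf had 214, 106, 237 and 251 at ZT1 and 934, 728, 744 and 546 at ZT13 (log2 change 1.91 ± 0.261, adjusted p = 0.00217). All 3 PAR bZIP factors therefore rose, each in 4 of 4 ZT13 libraries above 4 of 4 ZT1 libraries. Dbp overlaps Sphk2 on the other strand by 741 bases.

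Wee1, a kinase that holds back entry into mitosis, had 82.1, 44.6, 86.4 and 75.03 at ZT1 and 214, 184, 215 and 186 at ZT13 (log2 change 1.499 ± 0.215, adjusted p = 0.00255). Nampt, the rate-limiting enzyme of NAD salvage, had 1823, 1746, 1774 and 1848 at ZT1 and 3784, 3389, 3228 and 2786 at ZT13 (log2 change 0.87 ± 0.146, adjusted p = 0.00707); without the 3 libraries that stood apart the adjusted p was 0.0681. Por, the electron donor of cytochrome P450 enzymes, had 5371, 10947, 8513 and 6606 at ZT1 and 19532, 12909, 14082 and 13496 at ZT13 (log2 change 0.96 ± 0.206, adjusted p = 0.0319). The call of Por was lost with any of 6 libraries left out (adjusted p 0.0534 to 0.133 without ZT1 replicates 1 or 4 or ZT13 replicates 1, 2, 3 or 4). Dtx4, an E3 ubiquitin ligase of the Deltex family, was the output that was lower at ZT13, with 1991, 2344, 2587 and 2245 at ZT1 and 868, 927, 994 and 1025 at ZT13 (log2 change -1.26 ± 0.125, adjusted p = 5.96e-05). Every ZT13 value of Dtx4 lay under every ZT1 value, and the ZT19 mean was 2346 ± 295.

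The other outputs did not pass. Tspan4 had a log2 change of 0.87 (adjusted p 0.0606, or 0.0146 to 0.0431 without ZT1 replicates 2 or 4), and Usp2, Pim3 and Lonrf3 had 0.67, -0.27 and -0.51 (adjusted p 0.143, 0.437 and 0.338). The median log2 change of the 11 outputs was 0.87.

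Of 18 genes known to be induced by glucocorticoids, 6 were higher at ZT13 and none was lower, against 0.828% and 0.353% of all genes. Among the 18, 11 had positive and 7 negative log2 changes, with a list median of 0.46. Fkbp5 (chr17:28399095-28517524), a co-chaperone that dampens the glucocorticoid receptor, had 1062, 1238, 1086 and 1016 at ZT1 and 4513, 3236, 3493 and 3109 at ZT13 (log2 change 1.69 ± 0.158, adjusted p = 3.95e-05). Zbtb16, the transcription factor PLZF, had 264, 461, 324 and 430.04 at ZT1 and 2088, 958, 1683 and 986 at ZT13 (log2 change 1.90 ± 0.258, adjusted p = 0.00217). Tsc22d3 (GILZ), an anti-inflammatory target of the receptor, had 3771, 4015, 3967 and 3317 at ZT1 and 7035, 6408, 6574 and 7238 at ZT13 (log2 change 0.86 ± 0.109, adjusted p = 0.00113). Groups did not overlap for these genes, and in each of them the ZT7 mean, 1177 ± 177 for Fkbp5, 358 ± 39.1 for Zbtb16 and 4727 ± 379.7 for Tsc22d3, lay under every ZT13 library.

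Hif3a, a member of the hypoxia-inducible factor family, had 31.6, 14.9, 20.1 and 29.1 at ZT1 and 164, 91.9, 93.2 and 74.2 at ZT13 (log2 change 2.09 ± 0.346, adjusted p = 0.00615). The Krüppel-like factors Klf9 and Klf15, singled out after their values were seen, had log2 changes of 1.12 ± 0.1798 (adjusted p 0.00532) and 1.05 ± 0.236 (adjusted p 0.0403). The call of Klf15 was lost with any of 6 libraries left out (adjusted p 0.0617 to 0.163 without ZT1 replicates 1 or 4 or ZT13 replicates 1, 2, 3 or 4), and it had 918, 1876, 1703 and 916 at ZT1 and 3452, 2157, 2574 and 2601 at ZT13. Not every member followed: Ddit4, also singled out after its values were seen, had 2233, 4472, 3769 and 1629 at ZT1 and 1276, 1016, 1048 and 2111 at ZT13, overlapping groups with a log2 change of -1.10 and an adjusted p of 0.0631. Without the 3 libraries that stood apart, 5 members of the list were called higher, the list median was 0.27 and Ddit4 was called lower (log2 change -1.54, adjusted p 0.00775). Leaving out ZT1 replicate 4 or ZT13 replicate 4 alone called Ddit4 lower as well (adjusted p 0.0142 to 0.0217). With the B cell and muscle list means as covariates 4 members were called higher and the list median was 0.09. Dusp1, Sgk1 and Errfi1, which also respond quickly to the hormone, had log2 changes of -0.03, -0.07 and 0.08 (adjusted p 0.9503, 0.935 and 0.916). The hormone itself was not measured.

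**Figure D2:**
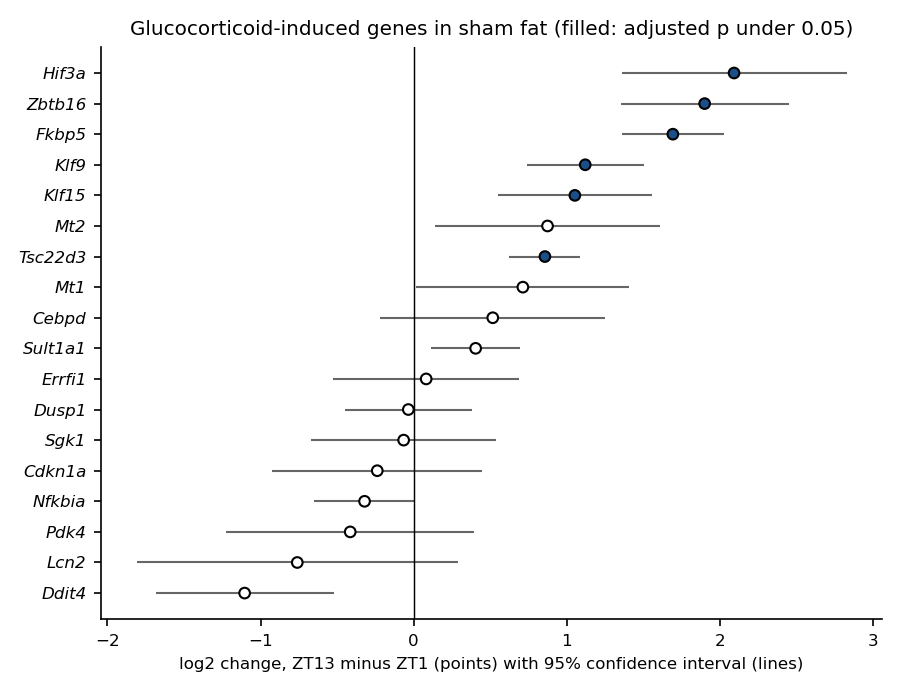
Log2 change from ZT1 to ZT13 (points) with its 95% confidence interval (lines) for the 18 genes induced by glucocorticoids in sham fat, 4 libraries at each time; filled points passed the adjusted p threshold of 0.05. The 6 filled genes lie to the right of 0, with Hif3a at 2.09 as the highest, while Ddit4 at -1.10 is the lowest.

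Outside the clock lists, the genes with the highest log2 changes among called genes with a mean of at least 50 in sham included Ripk4, Fam107a, Hif3a, Ccbe1, Zbtb16, Trp63, Cys1, Fkbp5, Map3k6, Cdh19 and Chrna5. Ripk4, a kinase of keratinocyte differentiation, had 9.41, 18.3, 10.03 and 16.8 at ZT1 and 149, 85.1, 73.7 and 63.4 at ZT13 (log2 change 2.65 ± 0.499, adjusted p = 0.0143). Fam107a, an actin-binding stress gene, had 72.7, 62.9, 60.96 and 119 at ZT1 and 315, 351, 497 and 412 at ZT13 (log2 change 2.34 ± 0.266, adjusted p = 0.000334). Neither gene had a ZT13 library within its ZT1 range. Map3k6, a kinase at the top of a stress-activated cascade, had 623, 1324, 1389.7 and 1131 at ZT1 and 4016, 2485, 3226 and 2924 at ZT13 (log2 change 1.54 ± 0.217, adjusted p = 0.00242). Trp63, the transcription factor p63 of stratified epithelium, had 56.4, 62.9, 47.8 and 22.4 at ZT1 and 188, 164, 157 and 161 at ZT13 (log2 change 1.89 ± 0.322, adjusted p = 0.00729). The Ripk4 adjusted p was 0.0734 without ZT13 replicate 1, and without the 3 libraries that stood apart it was 0.1099 for Ripk4 and 0.05899 for Trp63. Trp63 is itself 1 of the markers of mammary and skin epithelium. Of the 10 markers on that list in the table only 3 were expressed enough to be tested, and Trp63 alone was called. The other 2 had negative log2 changes, and the list median was -0.05. The list's summed counts were 133 to 242 at ZT1 and 280 to 291 at ZT13, Trp63 included. Trp63 alone averaged 47.4 at ZT1 and 167 at ZT13. The part of epithelium in the change of Trp63 and Ripk4 was not tested.

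Ccbe1, which is needed for lymphatic vessels to form, had 14.5, 13.7, 23.9 and 35.8 at ZT1 and 88.3, 84.1, 91.7 and 76.03 at ZT13 (log2 change 2.00 ± 0.276, adjusted p = 0.00217). Cys1, a protein of the primary cilium, had 111, 161, 133 and 342 at ZT1 and 684, 637, 557 and 481 at ZT13 (log2 change 1.78 ± 0.285, adjusted p = 0.00523). Neither gene overlapped between the times. Cdh19, a cadherin of Schwann cells, had a log2 change of 1.45 (adjusted p 0.0144). That call was lost without ZT13 replicate 1 or ZT13 replicate 3 (adjusted p 0.0647 to 0.0693). None of the 10 Schwann cell markers was called, with a list median of 0.49 (0.22 without the 3 libraries that stood apart) and list means of 7.44 to 8.59 at ZT1 and 8.18 to 8.99 at ZT13. Chrna5, a nicotinic receptor subunit, had overlapping groups, 26.5, 43.4, 47.1 and 80.6 at ZT1 and 185, 133, 136 and 77.8 at ZT13 (log2 change 1.45 ± 0.295, adjusted p = 0.0244), and its call was lost without ZT13 replicate 1, 2 or 3 (adjusted p 0.0771 to 0.114).

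The Fam107a and Map3k6 promoters are shown because both hold a glucocorticoid response element in the 250 bases before an annotated start, here the letters GNACA and TGTNC with any 3 bases between them, searched on both strands and shown in capitals.
Fam107a (chr14:8309778-8310027, minus strand): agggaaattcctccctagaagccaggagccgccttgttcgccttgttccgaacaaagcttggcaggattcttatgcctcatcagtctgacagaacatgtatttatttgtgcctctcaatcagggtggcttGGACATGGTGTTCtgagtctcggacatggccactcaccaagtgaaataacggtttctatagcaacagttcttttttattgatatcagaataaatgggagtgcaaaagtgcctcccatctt
Map3k6 (chr4:133240568-133240817, plus strand): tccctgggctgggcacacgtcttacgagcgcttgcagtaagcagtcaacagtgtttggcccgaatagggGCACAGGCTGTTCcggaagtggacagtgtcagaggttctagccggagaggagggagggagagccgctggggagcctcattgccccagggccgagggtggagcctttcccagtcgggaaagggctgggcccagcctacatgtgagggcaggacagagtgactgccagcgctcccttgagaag
Fam107a has 3 annotated starts in the table; a second, 2 bases from the one shown, held the element and the third did not. The element was found in 0.387% of the 32851 promoters and in 0.330% of the 11213 tested genes with a promoter in the table. Among the 99 genes called higher at ZT13 with a promoter there, 3 held it (3.03%), the third being Slc10a6. None of the 38 genes called lower held it. The Fkbp5 stretch held an E-box and no match to this element. No stretch of Tsc22d3 or Hif3a held the element either. These misses say only that the letters are not within this window.

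At the other end, the lowest log2 changes by the same rule belonged to Adamts4, Cd40, Mmp9, Glipr2, Slc39a8, Lcp2, Susd1, Cmtm7, Csf2rb2, Vwa3a, Mlph and Spon2. Adamts4, an aggrecanase that cuts matrix proteoglycans, had 182, 301, 373 and 218 at ZT1 and 50.2, 80.2, 107 and 85.99 at ZT13 (log2 change -1.71 ± 0.315, adjusted p = 0.0126; 0.0593 without ZT13 replicate 1). Slc39a8, a zinc and manganese transporter, had 275, 246, 414 and 331 at ZT1 and 88.3, 144, 168 and 126 at ZT13 (log2 change -1.27 ± 0.2096, adjusted p = 0.00615). Csf2rb2, a receptor subunit for interleukin 3, had 2217, 1428, 1411 and 1999 at ZT1 and 541, 914, 899.6 and 838 at ZT13 (log2 change -1.14 ± 0.205, adjusted p = 0.0103). All 4 ZT13 values lay under all 4 ZT1 values for these genes. The Csf2rb2 call was lost without the 3 libraries that stood apart (adjusted p 0.101) and when the B cell and muscle list means were covariates (adjusted p 0.0694). Csf2rb2 has a near-identical neighbour, Csf2rb, singled out after its values were seen, which was called in the same direction (log2 change -0.97, adjusted p 0.00281), and reads may be split between the copies. The kit does not mark strand, so reads from the opposite strand at Adamts4 cannot be told apart from its own.

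Several of these genes are used by immune cells. Cd40, a receptor of B cells and antigen-presenting cells, had 941, 201, 189.8 and 394 at ZT1 and 80.9, 119, 99.5 and 128 at ZT13 (log2 change -1.70 ± 0.362, adjusted p = 0.0311). Lcp2 (SLP-76), an adaptor of T cell and mast cell signalling, had 1923, 546, 640.5 and 815 at ZT1 and 264, 364, 408 and 437 at ZT13 (log2 change -1.25 ± 0.291, adjusted p = 0.0496). Both were highest in ZT1 replicate 1, the library with the high B and T cell marker levels, and all ZT13 libraries lay under the other 3 ZT1 libraries as well. With the B cell and muscle list means as covariates the log2 changes were -0.88 for Cd40 (adjusted p 0.117) and -0.59 for Lcp2 (adjusted p 0.2598). Without the 3 libraries that stood apart they were -0.95 (adjusted p 0.0418) and -0.71 (adjusted p 0.171). Mmp9, a gelatinase on the neutrophil list, had 149, 225, 325 and 513 at ZT1 and 103, 73.4, 93.2 and 105 at ZT13 (log2 change -1.55 ± 0.357, adjusted p = 0.0476). The calls of all 3 were lost with single libraries left out: Cd40 without ZT1 replicate 4 or ZT13 replicates 1, 2 or 3 (adjusted p 0.0545 to 0.127), Lcp2 without those or ZT13 replicate 4 (0.0616 to 0.189), and Mmp9 without any library except ZT1 replicate 1 (0.0563 to 0.147).

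Lymphocyte markers gave no call. None of 15 B cell and none of 13 T cell markers tested passed, although every one of them had a negative log2 change, with list medians of -2.61 and -2.16. The groups did not overlap, with ZT13 under ZT1, for 11 of the 15 B cell and 6 of the 13 T cell markers, against 4.23% of all genes. With ZT1 replicate 1 left out the same counts were 11 and 6, against 6.59% of all genes, and the medians were -1.22 and -0.68. The B cell list means were then 6.46 to 6.94 at ZT1 and 5.26 to 5.89 at ZT13, and those of T cells 5.15 to 5.48 and 4.07 to 5.15. Mmp9 was the 1 called gene of 11 neutrophil markers, which had a median of -1.24, with list means of 3.36 to 5.35 at ZT1 and 2.85 to 4.10 at ZT13. Of the mast cell, adipose progenitor and macrophage markers, 6 of 7, 8 of 8 and 9 of 12 were negative, with none called. Their medians were -0.76, -0.22 and -0.28. The adipocyte, Schwann cell and skeletal muscle lists had positive medians (0.20, 0.49 and 0.71). Mmp9 was highest in ZT1 replicate 4, whose neutrophil list mean of 4.35 lay under those of ZT1 replicates 1 and 3 (4.92 and 5.35). The part of RNA from any of these cell types in the genes called lower was not tested.

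**Figure D3:**
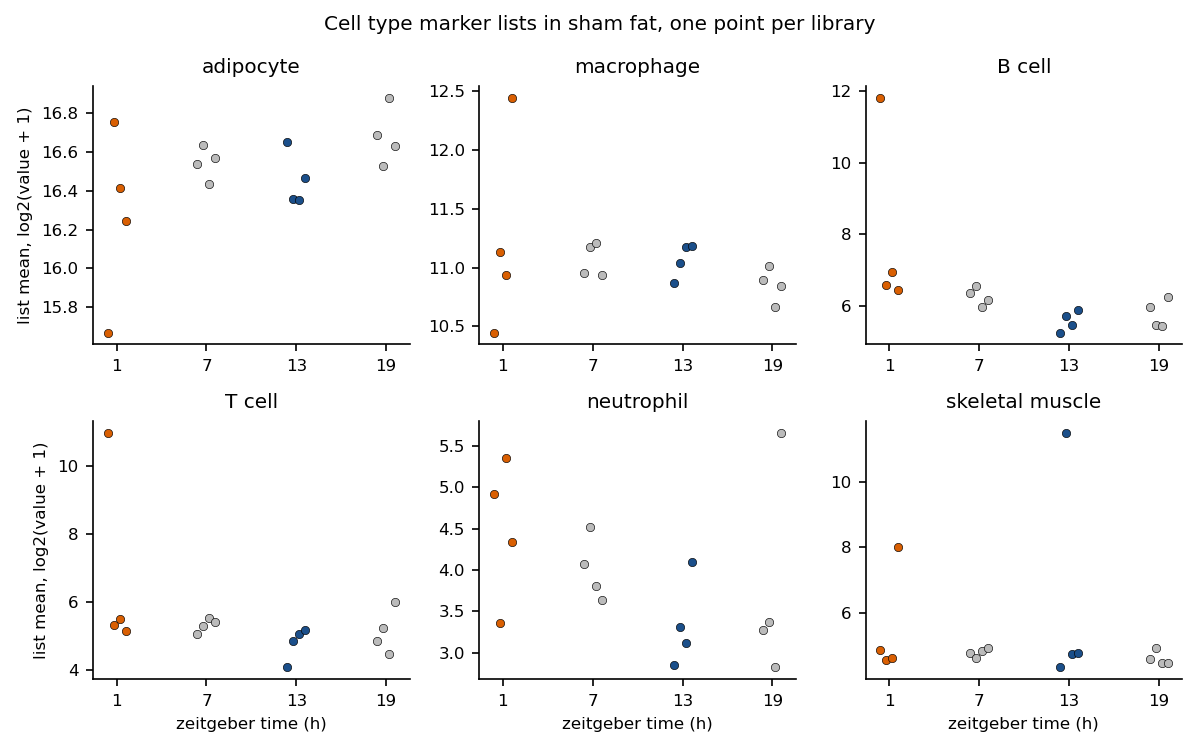
Mean log2(normalized read count + 1) of 6 cell type marker lists in the 16 sham libraries by zeitgeber time, 1 point per library, with ZT1 in orange and ZT13 in blue; the vertical scales differ between panels. One ZT1 library stands apart in B and T cell markers (11.8 and 10.97), and 1 library at each time stands apart in skeletal muscle markers (8.01 and 11.5).

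For the metabolic gene groups of fat, called members are counted below against 1.18% called among all genes tested. In glucose uptake, glycogen and insulin signalling, 2 of 15 genes were higher at ZT13, with a list median of 0.38 (0.23 without the 3 libraries that stood apart). Ppp1r3c, which targets the phosphatase that activates glycogen synthase to glycogen, had 644, 832, 825 and 514 at ZT1 and 1634, 1743, 1384 and 1482 at ZT13 (log2 change 1.17 ± 0.161, adjusted p = 0.00217). Pik3r1, the regulatory subunit of the insulin-responsive PI3 kinase, had 4434, 4329, 4282 and 4160.4 at ZT1 and 6895, 6723, 6519.6 and 5991 at ZT13 (log2 change 0.60 ± 0.129, adjusted p = 0.0328; 0.0525 to 0.127 without ZT1 replicates 2 or 4 or ZT13 replicates 1, 2 or 3). Neither gene overlapped between the times. Irs2, an adaptor of the insulin receptor that was singled out after its values were seen, had 741, 2342, 1282 and 1801 at ZT1 and 827, 545, 559 and 653 at ZT13, a log2 change of -1.15 with an adjusted p of 0.0606 and overlapping groups; without the 3 libraries that stood apart it was called lower (log2 change -1.37, adjusted p 0.0378), as it was without ZT1 replicate 1 alone (adjusted p 0.00494).

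Angptl4, an inhibitor of lipoprotein lipase induced by fasting, was the single called gene among 15 of fatty acid uptake and triglyceride synthesis, and it was lower at ZT13. It had 21508, 29546, 37105 and 26356 at ZT1 and 12301, 13605, 14924 and 18167 at ZT13 (log2 change -0.94 ± 0.193, adjusted p = 0.0256; 0.0501 to 0.1196 without ZT1 replicate 2 or ZT13 replicates 1, 2 or 3). Pparg, the master regulator of adipocyte identity, was the 1 called gene of 19 for adipocyte identity and adipokines, with 4922, 6157, 6773 and 4258 at ZT1 and 9007, 8436, 8403 and 8939 at ZT13 (log2 change 0.68 ± 0.137, adjusted p = 0.024002). Its lowest ZT13 library exceeded its highest ZT1 library, but the adjusted p was 0.0576 to 0.0942 without ZT13 replicates 1, 2, 3 or 4. Leptin (Lep), the hormone of fat stores, had 85937, 120719, 148495 and 97527 at ZT1 and 139232, 133416, 153257 and 142853 at ZT13, overlapping groups with a log2 change of 0.36 (95% confidence interval -0.51 to 1.23, adjusted p 0.6996). Bnip3, a mitophagy receptor among 13 fasting and FoxO targets, was higher (log2 change 0.62 ± 0.133, adjusted p = 0.0315; 0.0626 to 0.128 without ZT1 replicates 1 or 2 or ZT13 replicates 1, 2 or 3).

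None of 17 de novo lipogenesis genes was called, against 1.18% of all genes tested. Of the 17, 15 had positive log2 changes, and the list median was 0.41. Without the 3 libraries that stood apart that median was 0.07. Fasn, fatty acid synthase, had 24438, 60201, 42593 and 11592 at ZT1 and 65694, 34091, 47124 and 64860.3 at ZT13, with a log2 change of 0.81 (95% confidence interval -0.06 to 1.68) and an adjusted p of 0.344; its lowest value was in ZT1 replicate 4. Mlxipl (ChREBP), the carbohydrate-responsive regulator of this pathway, had the smallest p of the list, with a log2 change of 0.67 and an adjusted p of 0.105. No gene passed in lipolysis and lipid droplet (17 tested, median 0.28), fatty acid oxidation (19, 0.04), cholesterol synthesis and uptake (22, 0.04), thermogenesis (13, 0.14), branched-chain amino acid breakdown (18, 0.17) or oxidative phosphorylation (22, -0.01). Without the 3 libraries that stood apart these medians were, in the same order, -0.03, -0.13, -0.18, -0.10, 0.02 and -0.22, so the sign turned for lipolysis, fatty acid oxidation, cholesterol and thermogenesis. Ucp1, the uncoupling protein of brown and beige fat, had a log2 change of 1.17 with a 95% confidence interval of -1.72 to 4.05 and an adjusted p of 0.707.

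**Figure D4:**
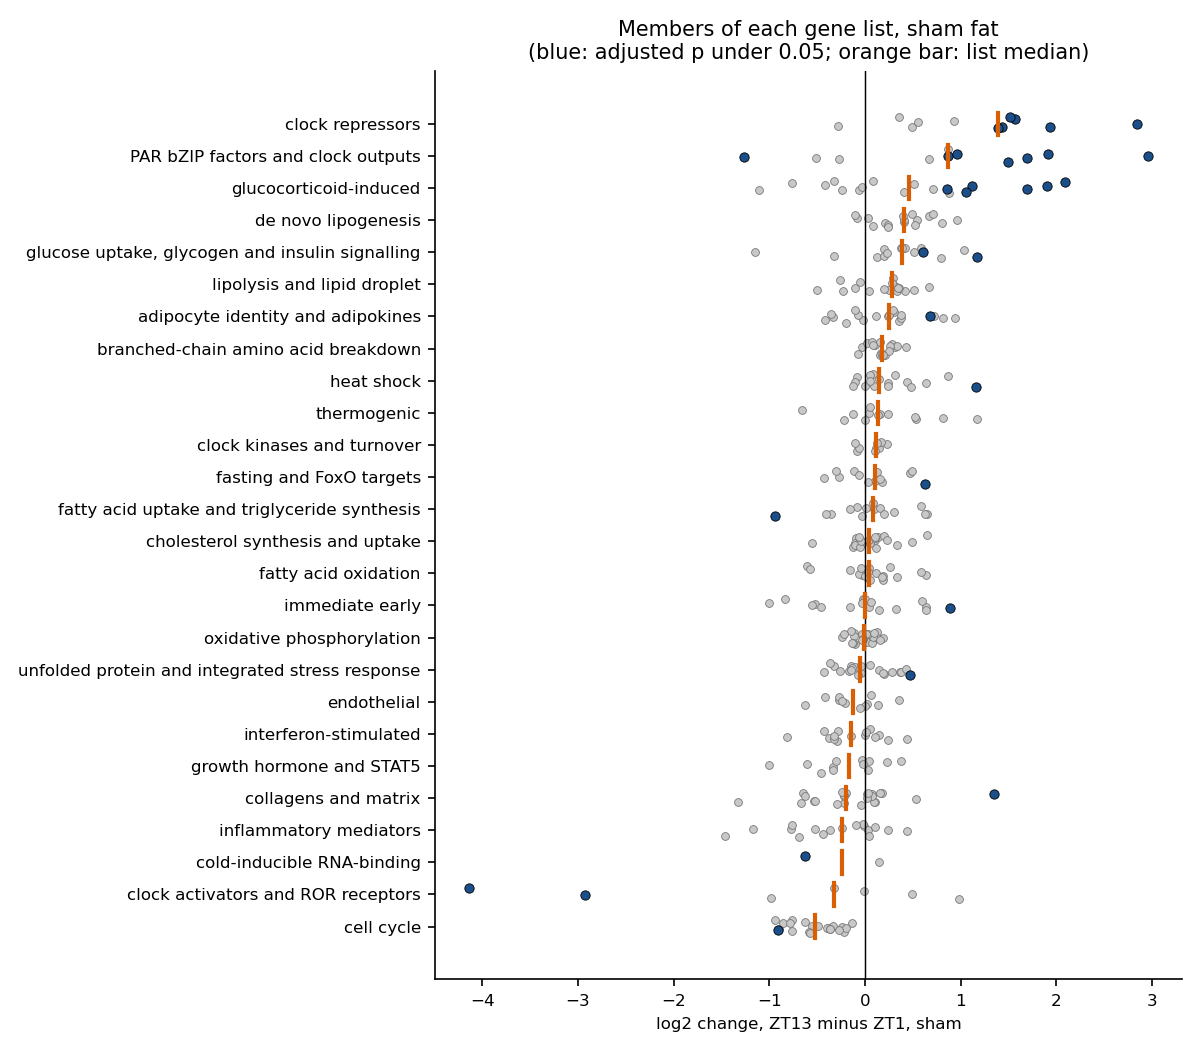
Log2 change from ZT1 to ZT13 in sham fat of every tested member of 26 gene lists (points; blue where the adjusted p was under 0.05, grey otherwise), with the list median as an orange bar; vertical scatter within a list has no meaning. Clock repressors and outputs have the highest medians (1.39 and 0.87), Npas2 and Arntl lie far to the left, and the 22 cell cycle genes all lie left of 0 with 1 of them called.

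Single members were called in several stress and remodelling lists, where 1.18% of all genes tested were called. With 1 call in a list, no change of the list is claimed. Hspa1b, an inducible HSP70 gene, was the called gene among 17 heat shock genes, with 37.6, 67.4, 60.2 and 55.99 at ZT1 and 136, 115, 114 and 123 at ZT13 (log2 change 1.16 ± 0.225, adjusted p = 0.0185; 0.05202 to 0.0858 without ZT13 replicates 1, 2 or 3); its near-identical copy Hspa1a had a log2 change of 0.87 and an adjusted p of 0.213, and reads may be split between them. Cirbp, an RNA-binding protein induced by cooling, was lower at ZT13, with 3102, 2202, 1963 and 2669 at ZT1 and 1610.5, 1626, 1578 and 1513 at ZT13 (log2 change -0.63 ± 0.146, adjusted p = 0.0487). The other cold-inducible gene tested, Rbm3, had 0.15 (adjusted p 0.686). Cirbp lost its call with any of 6 libraries left out (adjusted p 0.0793 to 0.135 without ZT1 replicates 1 or 4 or ZT13 replicates 1, 2, 3 or 4).

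Timp3, a matrix-bound inhibitor of metalloproteinases, was the 1 called gene of 25 in the collagen and matrix list, with 1401, 2919.8, 2264 and 3339.5 at ZT1 and 7149.6, 5625, 6896 and 4628 at ZT13 (log2 change 1.34 ± 0.226, adjusted p = 0.00707). Its groups did not overlap, but with the B cell and muscle covariates its log2 change was 0.82 (adjusted p 0.05005). The list median of -0.20 was -0.39 without ZT1 replicate 1, -0.01 without ZT1 replicate 2, and -0.52 with those covariates, where 21 of the 25 were negative. Herpud1, of the unfolded protein response, and Nr4a2, an immediate early receptor gene, were higher (log2 changes 0.47 and 0.89, adjusted p 0.00871 and 0.0288; Nr4a2 0.0604 to 0.127 without ZT1 replicate 2 or ZT13 replicates 1, 2 or 3). Cenpa, the centromeric histone, was the called gene of 22 cell cycle genes (log2 change -0.91, adjusted p 0.0305; 0.0538 to 0.123 without ZT1 replicate 1 or ZT13 replicates 1, 2 or 3). All 22 had negative log2 changes, with a median of -0.52. Without ZT1 replicate 1 the median was -0.32 with 20 of the 22 negative. With the B cell and muscle list means as covariates it was -0.12 with 14 negative and 8 positive, and the adjusted p of Cenpa was 0.213; without the 3 libraries that stood apart these were -0.62, 22 negative and 0.177. Of 15 interferon-stimulated genes, 17 inflammatory mediators, 12 genes of growth hormone and STAT5 signalling and 12 endothelial genes, none passed.

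Of 53 called genes examined by name, 22 lost the call without the 3 libraries that stood apart (adjusted p 0.0587 to 0.296): Bnip3, Cenpa, Cirbp, Cmtm7, Csf2rb2, Glipr2, Hspa1b, Klf15, Lcp2, Mlph, Mmp9, Nampt, Nr4a2, Per1, Pik3r1, Por, Pparg, Ripk4, Spon2, Susd1, Trp63 and Vwa3a. With the B cell and muscle list means as covariates 23 lost it (adjusted p 0.05005 to 0.2598): Bnip3, Cd40, Cdh19, Cenpa, Chrna5, Cirbp, Cmtm7, Csf2rb2, Cys1, Glipr2, Hspa1b, Klf15, Klf9, Lcp2, Mlph, Nr4a2, Pik3r1, Por, Pparg, Ripk4, Susd1, Timp3 and Vwa3a. Leaving out the 3 libraries removed 2 of the 4 ZT1 libraries and 1 of the 4 ZT13 libraries, so fewer samples were compared. The part of that smaller number in the 22 losses was not tested.

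The same contrast in VSG fat was fitted on the 16 VSG libraries alone, a fit added after the data were seen. There 24 genes (0.154%) were called, 18 higher (0.115%) and 6 lower (0.0385%) at ZT13, and 19 of them were also called in sham in the same direction, which is 10.3% of the sham calls and 79.2% of the VSG calls. These are different animals, so no library is shared. B cell list means reached 12.5 at ZT1 and 11.2 at ZT13 in the VSG libraries, with lowest values of 6.30 and 5.74. Of the 184 genes called in sham, 183 had the same sign in VSG, against 75.6% of all genes tested. The exception, named after its values were seen, was Pla2g15, a lysosomal phospholipase, with -0.65 in sham and 0.01 in VSG. Npas2 had a log2 change of -3.40 ± 0.237 in VSG, Arntl of -2.41 ± 0.289, Per2 of 2.25 ± 0.216 and Dbp of 2.30 ± 0.484. Fkbp5 had 1.64 ± 0.232 and Zbtb16 had 1.90 ± 0.345. Group means and SDs in VSG at ZT1 and ZT13 (n = 4 each) were 214 ± 35.8 and 20.1 ± 7.85 for Npas2, against 211 ± 45.9 and 10.9 ± 1.72 in sham.

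The difference of the 2 contrasts, tested in a fit of all 32 libraries, was called for 0 genes with limma (158 genes at an unadjusted p under 0.05), for 0 with edgeR and for 4 with DESeq2. Those 4, named after their values were seen, were Cish, Enc1, Grem1 and Dsc3; for Grem1 and Dsc3 all 4 sham ZT13 libraries were listed at 0, and limma gave differences of the other sign (-0.78 and -1.34, adjusted p 0.9999 for both). The smallest p among genes with a mean of at least 50 belonged to Cish, a feedback inhibitor of cytokine and growth hormone signalling. In sham Cish had 205, 248, 195 and 109 at ZT1 and 85.5, 111, 237 and 189 at ZT13, with a log2 change of -0.34, and in VSG the log2 change was 3.42 ± 0.597. The difference was 3.75 ± 0.769 with an adjusted p of 0.629. Next came Enc1 (log2 change -0.28 in sham and 0.64 ± 0.164 in VSG, adjusted p of the difference 0.792).

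**Figure D5:**
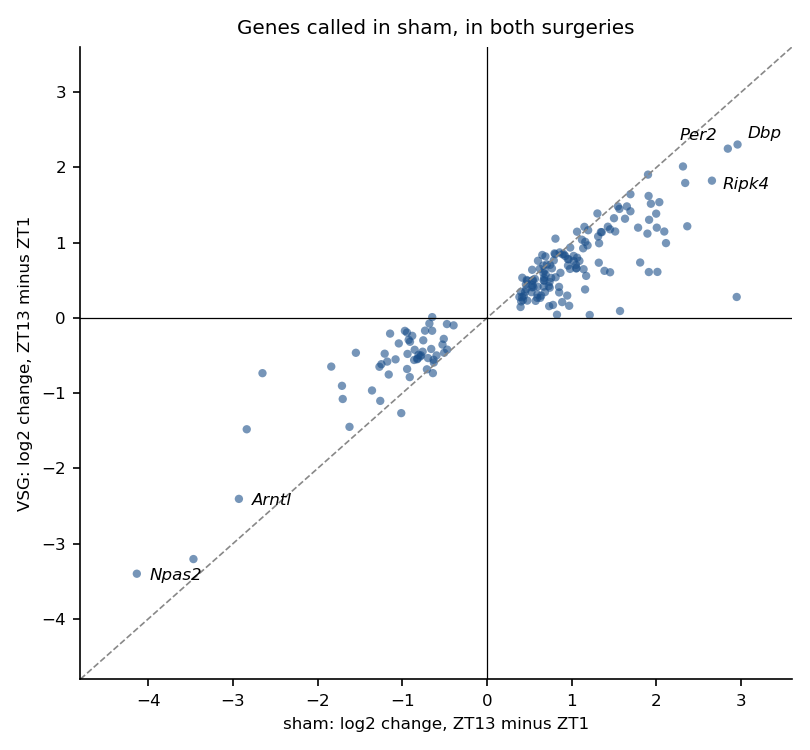
Log2 change from ZT1 to ZT13 in VSG fat (vertical axis) against that in sham fat (horizontal axis) for the 184 genes called in sham; the dashed line marks equal change, and each contrast rests on 4 libraries at each time. All but 1 of the points lie in the quadrants of equal sign; Npas2 (-4.13 in sham, -3.40 in VSG) and Dbp (2.96 and 2.30) mark the ends.

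The labels list weight loss of the animals with no unit. It was 2.63, 2.15, 2.32 and 8.96 at ZT1 and 5.4, 3.55, 6.07 and 6.02 at ZT13. The means were 4.02 ± 3.30 and 5.26 ± 1.18 (SD, n = 4 each), and the difference of 1.25 had an exact two-sided permutation p of 0.457 over 70 splits, of which 0.0286 is the smallest possible. Without ZT1 replicate 4 the difference was 2.89, with an exact permutation p of 0.0571. With weight loss as a covariate 237 genes were called between ZT1 and ZT13.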

How the data were processed

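RNA libraries (Illumina TruSeq v2, a kit that does not mark strand) were made from white fat biopsies, per the labels' protocols. The submitters' processing notes name the build mm10, the aligner STAR 2.5.2a, DESeq2 1.24.0 under R 3.6.3, featureCounts 1.5.0-p1 and bcl2fastq 2.17.1.14, with no settings. The deposited signal is a normalized read count per gene: dividing by the library's smallest step gave whole numbers for 100% of genes in all 32 libraries (tolerance 0.001), and hence whole reads, 15723832 to 37161290 per library. The table holds 18124 genes; the other deposited tables were not used here. Gene coordinates are those of the deposited table. The B cell and muscle lists and all other lists are hand-written, and the samples compared and the lists were chosen with earlier results of these data known.

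A gene was kept where its mean over the 32 libraries reached 10, and log2(value + 1) of the 16 sham libraries entered a limma model (3.58.1, under R 4.3.3) of 4 time means and a mean-variance trend; p-values were adjusted by Benjamini-Hochberg and called under 0.05. At that size 2539 genes had an unadjusted p under 0.05. Replicates were numbered in accession order, so the numbers pair nothing. Libraries of the same group differed beyond counting noise, with chi-square values of 22.04 to 190.3 times their degrees of freedom over 12 pairs, so each counts as 1 sample. Named genes were all clock list members, the 12 highest and 12 lowest changes among called genes (mean of at least 50 in sham, no predicted names), from every other list at most 3 called genes a direction, the gene with the smallest p in a list with no call, and 5 genes for the difference between surgeries; not all are printed, and some are not reported here. Other settings tried were array weights, quantile or TMM scaling, pseudocounts of 0.5 and 5, a minimum mean of 50 or none, covariates, other sets of libraries, each library left out, and count tests on whole reads with DESeq2 1.42.0 and edgeR 4.0.16. The count tests called 287 genes (edgeR) and 877 (DESeq2). On simulated counts for the ZT13 against ZT1 contrast over 15588 genes, 31.3% of 67 genes changed 1.5-fold were recovered, 80.6% of 67 changed 2-fold and 93.9% of 66 changed 4-fold, with 5 false calls among 142. Changes were planted in genes with a mean of at least 50 in sham, each drawn independently with the same spread in every group. The real libraries were less even, with chi-square per degree of freedom of 48.8 to 190 at ZT1 and 22.0 to 48.9 at ZT13. The simulated recovery and false-call figures need not hold for them. Promoters are from RefSeq (GRCm38.p6), where 69 of 91 named genes matched. Besides those named in the results, Tef, Bhlhe41, Ciart, Wee1, Usp2, Timp3, Tspan4, Por, Mlxipl, Cish and Irs2 overlap a gene on the other strand, and Clock and Pik3r1 overlap one on the same strand.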

Additional observations from a re-analysis of the deposited data

Results flagged for a closer look

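In groups of 4, a library was set apart when its gap to the nearest other value took up more of the group's range than Dixon's 95% critical value. Of 174 groups examined 6 were set apart, where chance sets apart about 1 in 20. Per2 in sham ZT1 replicate 2 had a normalized read count of 293, against 205 to 219.7 in the other 3. Sham ZT1 replicate 1 had B and T cell list means of 11.8 and 10.97 on the log2 scale, against 6.46 to 6.94 and 5.15 to 5.48. Sham ZT1 replicate 4 had a muscle list mean of 8.01, against 4.58 to 4.87, and the same animal had a weight loss of 8.96, against 2.15 to 2.63. Sham ZT13 replicate 2 had a muscle list mean of 11.5, against 4.36 to 4.79.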

How the results depend on the processing

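Of the 53 named genes that were called, 16 stayed called under all 22 alternatives (Arntl, Bhlhe41, Csf2rb, Dbp, Dtx4, Fam107a, Fkbp5, Hlf, Npas2, Per2, Per3, Ppp1r3c, Tef, Tsc22d3, Wee1 and Zbtb16), 37 lost the call under at least 1, and none changed sign. The count of 184 called genes was 177 with a pseudocount of 5, 178 with no filter, 169 with a mean of at least 50, 186 with TMM rescaling, 232 with quantile normalization, 176 with all 32 libraries and 237 with weight loss as a covariate. It was 426 with array weights, 287 with edgeR (145 higher and 142 lower), 877 with DESeq2 (348 higher and 529 lower), 120 with the B cell and muscle list means as covariates (68 of them among the 184), 110 without the libraries high in muscle or B cell markers, and 29 with the 8 libraries fitted alone, which leaves fewer samples to estimate the spread. Leaving out 1 library gave 74 to 462 genes. The cause of these shifts was not tested, and this includes the lower count with the 8 libraries fitted alone. The difference between surgeries was called for 4 genes with DESeq2 and for 0 under the other alternatives run. Arntl2, near 0 in the report, had a log2 change of 0.079 with quantile normalization and -0.14 to 0.13 with 1 library left out. The weight loss difference was 0.623 to 2.89 with 1 animal left out. No paired analysis was possible because the labels give no replicate numbers. With 4 libraries at each time, changes under 2-fold were often missed on simulated counts.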
